A study of Mus musculus with 2 samples.

Results

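Proliferating cells that carry genes of type 1 conventional dendritic cells (cDC1) were chosen from scRNA-seq of splenic dendritic cells (DC) by limits on unique molecular identifiers (UMIs), each of which counts 1 captured transcript. A cell was a member when Top2a, Mki67, Birc5 and Pclaf together gave at least 4 UMIs and Xcr1 and Clec9a together at least 2. Members also had under 5 UMIs of Siglech, a plasmacytoid DC (pDC) gene, and under 10 of S100a8 and S100a9, which are neutrophil genes. These limits selected 155 of 19339 cells, 71 of 7814 in the WT library and 84 of 11525 in the H2-Aa cit/cit library. The genes in the limits were measured in the same cells, so their levels are a description of the choice and not a result.

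The study compared naive WT (H2-Aa +/+) mice with H2-Aa cit/cit mice, which are homozygous for cit, a germline allele of H2-Aa from chemical mutagenesis, and are called mutant here. The H2-Aa product is the α chain of an MHC class II molecule. DC were pooled from spleens of 3 female mice of 4 months per genotype, enriched with CD11c beads and sorted as live CD45.2+ CD11c+ cells, about 15000 per library. There was 1 library per genotype, so genotype and library cannot be told apart and no difference between genotypes was tested. The libraries held 51020804 UMIs (WT) and 72652201 UMIs (mutant). All intervals below are exact 95% intervals and cover counting error only.

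cDC1, which carry the chemokine receptor XCR1, take up material from dead cells through CLEC9A and cross-present it to CD8 T cells. They depend on the transcription factors IRF8 and BATF3. Conventional DC arise from dividing precursors, and some still divide after they have reached the spleen. A dividing cell first turns on E2F target genes, which license and copy its DNA. Later it turns on a set of mitotic genes, which are regulated by the MuvB complex and build and control the spindle.

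Members were compared within each library with 2 groups. The first were non-cycling cells with cDC1 genes, which had at least 2 UMIs of Xcr1 and Clec9a and under 4 cycling UMIs (785 WT and 844 mutant cells). Of these, 731 and 796 also kept to the Siglech and S100a8 limits, which were not part of the definition of this group. The second were cycling cells without cDC1 genes, which passed every limit of the members except that of Xcr1 and Clec9a (281 and 554 cells). No member barcode was shared between the libraries, which had 31 barcodes in common.

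The cycling limit fell in a sparse stretch of the distribution. Among cells that passed the cDC1, Siglech and S100a8 limits, 572 of 802 in WT and 612 of 880 in the mutant had 0 UMIs of the 4 cycling genes. Just outside the limit, 15 WT and 12 mutant cells had 3 UMIs, and just inside it 10 and 4 cells had 4. The members' median was 14 UMIs in WT and 20 in the mutant, and 37 and 56 members had 12 or more. The median of Xcr1 and Clec9a was 10 UMIs in WT members and 8 in mutant members, with 4 and 10 members at exactly 2. On the other side of that limit, 14 WT and 28 mutant cycling cells had 1 UMI of these genes and 267 and 526 had none. The Siglech limit removed 2 WT cells and no mutant cell, and the S100a8 limit removed none.

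**Figure D1:**
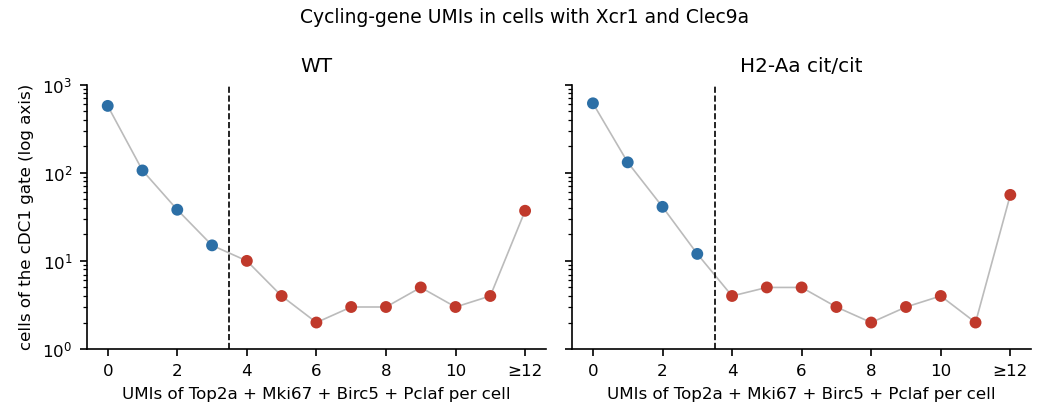
Number of cells that passed the cDC1, Siglech and S100a8 limits (y axis, log scale) by their UMIs of Top2a, Mki67, Birc5 and Pclaf together (x axis) in each library, with the dashed line between 3 and 4 UMIs, the last point for 12 or more, members in red and cells under the limit in blue. The counts drop from 572 and 612 cells at 0 UMIs to 15 and 12 at 3, and 37 and 56 members lie at 12 or more.

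Members were deep cells. Their median was 19143 UMIs and 4592 genes in WT and 19372.5 UMIs and 4792 genes in the mutant, against 10861 and 12733 UMIs in non-cycling cells and 8805 and 8520 UMIs in cycling cells without cDC1 genes. A limit on raw UMIs is met more easily by a deep cell. In the mutant library 6 members had over 40000 UMIs, 4 of them between 72456 and 79714 UMIs with 49 to 78 UMIs of 6 cDC2 genes (Sirpa, Clec4a4, Cd209a, Itgam, Cd4 and Esam). In WT 1 member had over 40000 UMIs. At least 3 UMIs of those 6 genes were found in 15 WT members (21.1%) and 29 mutant members (34.5%), and in 25.5% and 26.9% of the non-cycling cells. Whether such members hold RNA of more than 1 cell was not tested.

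The name of the cells was checked with 27 cDC1 genes outside the limits. Their sum exceeded that of 18 cDC2 genes in 68 of 71 WT members (95.8%, interval 88.1 to 99.1). The same held in 77 of 84 mutant members (91.7%, 83.6 to 96.6). These 77 included the mutant members with 72456 to 79714 UMIs. Their sums were 283 to 322 UMIs for the cDC1 genes and 214 to 264 UMIs for the cDC2 genes. Per 10000 UMIs of a cell, the cDC1 and cDC2 sums had medians of 100 and 2.18 in WT members and 86.9 and 3.47 in mutant members. In cycling cells without cDC1 genes these medians were 22.7 and 27.3 in WT and 21.9 and 27.1 in the mutant. Wdfy4, the most abundant of the 27 cDC1 genes, was at 971 and 961 CPM in those cells and 1912 and 1441 CPM in members. Irf8, the gene of the factor that keeps cDC1 identity, was at 1385 CPM (UMIs of the gene scaled to 1000000 UMIs of the group) in WT members and 1107 CPM in mutant members, and at 46.3 and 37.9 CPM in the cycling cells without cDC1 genes. With each cell thinned to 3000 UMIs, 87.3% of WT and 81.0% of mutant members had a UMI of Irf8 (94.4% and 94.0% before thinning), against 9.56% and 9.52% of the cycling cells without cDC1 genes. All 71 and 84 members were deep enough for the thinning, and 30 WT and 71 mutant cells of the other group were left out. The members therefore had cDC1 genes well above the level at which other dividing cells of the same libraries carried them.

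Markers of most other cell types were scarce in the members. Of 8 T cell markers, none had a UMI in WT members, and only Cd3d did in mutant members, with 2 UMIs. Of 8 B cell markers, 3 had a UMI in each library, at 28.0 and 13.8 CPM in sum, led by Ms4a1 in WT and Cd79b in the mutant, while Cd79a, Pax5 and Ebf1 were at 0. Of 8 plasma cell markers 2 were seen, with Ighm at 151 and 147 CPM, close to its level in non-cycling cells (152 and 144 CPM), and Jchain, Sdc1 and Mzb1 at 0. Of 8 NK markers 2 were seen, at 88.6 and 110 CPM in sum and almost entirely Klrk1, with Ncr1 and Nkg7 at 0. Macrophage markers summed to 77.2 CPM in WT (7 of 9 seen, led by C1qb) and 82.4 CPM in the mutant (8 of 9, led by Adgre1), and monocyte markers to 246 and 201 CPM (6 and 7 of 8 seen, led by Treml4 and Ccr2), against 330 and 278 CPM in non-cycling cells and 104 and 113 CPM in cycling cells without cDC1 genes. Erythroid markers summed to 21 and 9 UMIs, 15.9 and 4.78 CPM, led by Hbb-bs and Car2. Neutrophil markers gave 2 UMIs in WT and 119 in the mutant, the latter led by Prtn3, with 81 of 84 members at 0. The mutant sum was 63.2 CPM in members, 3.77 CPM in non-cycling cells and 85.6 CPM in the other cycling cells. Without cells that had at least 3 UMIs of the 6 cDC2 genes, neutrophil markers were at 0.983 CPM in mutant members and macrophage markers at 25.7 and 26.5 CPM. The part of these genes in the results was not tested.

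Members carried transcripts of DNA replication, chromosome condensation and mitosis. Of genes with at least 50 CPM in members or in non-cycling cells, 268 of 3967 in WT (6.76%) and 158 of 3789 in the mutant (4.17%) were at least 2-fold higher in members, and 139 of the 3538 genes measured in both libraries were higher in both. Since the cells were chosen on 4 cycling genes, these counts describe the choice. By the rule of the smaller of the 2 libraries' ratios, the highest were Hmmr, Ccna2, Rrm2, Nusap1, Kif4, Cenpf, Prc1, Neil3, Cdca8 and Hist1h1b. Ccna2, the cyclin of S and G2 phase, had 77 UMIs (58.3 CPM) in WT members and 105 (55.8 CPM) in mutant members, and 4 and 2 UMIs in all non-cycling cells. Hmmr, which organizes spindle microtubules, had 94 and 178 UMIs in members against 1 and 7. Hist1h1b, a linker histone of S phase, was the most abundant of the 10 at 743 and 508 CPM in members against 18.6 and 12.5 CPM, 5.32 and 5.35 higher on the log2 scale. Hmmr and Ccna2 were thus near 0 in cells with cDC1 genes outside the members, while Hist1h1b was low there but present.

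The cell cycle lists are given as sums over all their genes, since nearly every gene of these lists that reached 50 CPM did so only in members and had to differ. Of the origin licensing list 8 of 21 genes in WT and 7 of 21 in the mutant reached 50 CPM, all only in members, and the list summed to 1120 and 905 CPM in members against 210 and 174 CPM in non-cycling cells, 5.32-fold and 5.20-fold higher. The replication fork and DNA synthesis list was 4.76-fold and 4.15-fold higher, with 24 and 19 of 32 genes at 50 CPM, 22 and 18 of them only in members. The DNA repair and checkpoint list was 6.002-fold and 5.61-fold higher, with 5 and 4 of 16 genes, all only in members. Mitotic lists stood further apart. The spindle and kinetochore list was 21.8-fold and 19.4-fold higher, at 2723 and 2589 CPM against 125 and 133 CPM, with 21 and 20 of 41 genes at 50 CPM, all only in members. The mitotic kinases, cyclins and APC/C genes were 8.56-fold and 5.94-fold higher, with 12 and 10 of 26 genes, 11 and 8 of them only in members. The lists had the same order of fold in both libraries, which describes the choice of the cells. Non-cycling cells held more of the S-phase transcripts than of the mitotic ones, as Pcna, the sliding clamp of the replication fork, at 39.3 and 32.7 CPM there and 207 and 132 CPM in members, and Cdk1, the kinase that starts mitosis, at 2.39 and 3.05 CPM there and 78.0 and 73.8 CPM in members.

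Genes for chromatin in dividing cells summed to a 4.71-fold and 4.03-fold higher level, with 31 and 29 of 36 genes at 50 CPM, 16 and 17 of them only in members. Hmgb2, a chromatin protein, was at 1781 and 1297 CPM in members against 161 and 142 CPM. Stmn1, which destabilizes microtubules, was at 647 and 505 CPM against 28.9 and 20.5 CPM. Genes that act before S phase differed less by their sum. In the list of G1 cyclins, CDK inhibitors and RB-E2F genes 13 and 14 of 30 genes reached 50 CPM, 5 and 3 of them only in members, and the list summed to 1877 and 2099 CPM in members against 1786 and 1622 CPM. Ccnd1, the D cyclin with the most UMIs, was at 232 and 324 CPM in members and 210 and 208 CPM in non-cycling cells. Cdk4, its partner kinase, was at 109 and 113 CPM against 41.3 and 51.5 CPM. Cdkn1b, the p27 inhibitor, was at 62.8 and 59.5 CPM in members and 59.1 and 64.4 CPM in non-cycling cells, a log2 ratio of 0.09 (-0.26 to 0.42) and -0.12 (-0.42 to 0.17). Btg1, an antiproliferative gene, was at 212 and 178 CPM in members against 445 and 253 CPM.

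Promoters of cell cycle genes carry short elements that mark the 2 waves of expression, and 4 promoters are shown as examples. Top2a and Mki67 are in the limit on cycling genes, so their transcripts set the members apart by the choice. Birc5 and Pclaf, also in that limit, are not shown. Sequences are from RefSeq, build GRCm38.p6, on the strand of the gene and 5′ to 3′, and end at the last base before the annotated gene. Capitals mark the CHR element (TTTGAA, or TTCAAA on the other strand), the CCAAT box (CCAAT or ATTGG) and an E2F-like element (TTCCCGC or TTTGGCGC, read on the other strand as GCGGGAA or GCGCCAAA).
Top2a: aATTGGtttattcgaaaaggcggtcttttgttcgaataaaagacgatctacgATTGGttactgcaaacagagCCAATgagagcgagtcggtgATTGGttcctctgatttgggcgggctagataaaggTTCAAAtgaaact
Mki67: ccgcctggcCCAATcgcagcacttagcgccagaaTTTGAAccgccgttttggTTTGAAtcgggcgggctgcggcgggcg
Cdc20: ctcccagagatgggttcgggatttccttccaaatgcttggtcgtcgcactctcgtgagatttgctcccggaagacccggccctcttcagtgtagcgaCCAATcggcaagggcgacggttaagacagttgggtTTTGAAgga
Mcm5: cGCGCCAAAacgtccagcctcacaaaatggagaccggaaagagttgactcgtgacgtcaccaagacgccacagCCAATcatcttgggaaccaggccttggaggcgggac
The stretches lie at chr11:99024200-99024339 (Top2a, minus strand, 140 bases), chr7:135716451-135716529 (Mki67, minus, 79 bases), chr4:118437353-118437493 (Cdc20, minus, 141 bases) and chr8:75109359-75109467 (Mcm5, plus, 109 bases). Top2a, Mki67 and Cdc20 had a CHR element and a CCAAT box here, and Mcm5, a subunit of the replicative helicase, had an E2F-like element and a CCAAT box. Cdc20, which activates the APC/C, was at 62.1 and 70.1 CPM in members and 1.41 and 1.97 CPM in non-cycling cells. Mcm5 was at 84.0 and 66.9 CPM against 10.5 and 7.81 CPM. Over promoter windows of 300 bases, a CHR element was found for 37 of 56 matched genes of the mitotic lists (66.1%), 9 of 43 of the S-phase lists (20.9%) and 5466 of all 27025 genes (20.2%). The E2F-like element was found for 12.5%, 48.8% and 5.79%, and CCAAT for 73.2%, 60.5% and 41.1%. Of the 4 cycling genes in the limit, 2 had a CHR element, 1 an E2F-like element and 3 a CCAAT box. A match is a description of the letters and was not tested as a binding site.

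Members ranged from cells with mostly S-phase to cells with mostly mitotic transcripts. For each cell, the UMIs of the S-phase lists (origin licensing and replication fork, 53 genes) were set against those of the mitotic lists (spindle and kinases, 67 genes). The median was 36.9 S-phase UMIs per 10000 in WT members and 27.3 in mutant members, against 5.86 and 5.44 in non-cycling cells. Mitotic UMIs had a median of 38.8 and 34.1 per 10000 in members, against 2.84 and 3.94. The S-phase lists made up at least 75% of the sum in 16 WT and 15 mutant members, 50 to 75% in 17 and 21, 25 to 50% in 14 and 18, and under 25% in 24 and 30. This share is a continuous range, with 14 and 16 members between 40 and 60%, and every member had UMIs of both kinds. Non-cycling cells had a median share of 66.7% in WT and 58.3% in the mutant, inside the range of 50 to 75%. In that range 3 WT members and 1 mutant member had both kinds at or under the 75th percentile of the non-cycling cells (8.29 and 7.99 S-phase and 4.45 and 5.54 mitotic UMIs per 10000), and no member of the other ranges did. The share of members under 25% was 33.8% (22.997 to 46.0) in WT and 35.7% (25.6 to 46.9) in the mutant.

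**Figure D2:**
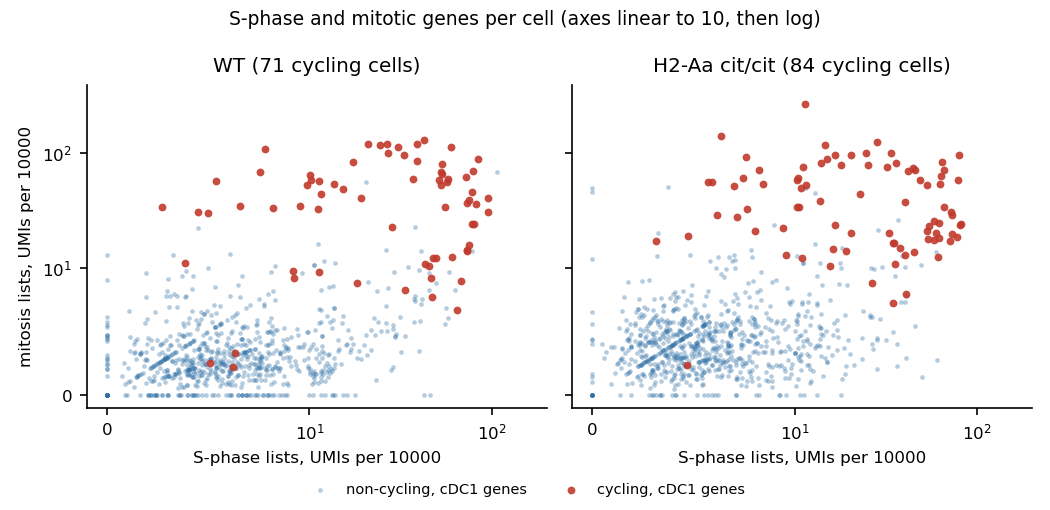
UMIs per 10000 of the S-phase lists (x axis) and of the mitotic lists (y axis) in each cell, for members (red) and non-cycling cells with cDC1 genes (blue), on axes that are linear up to 10 and logarithmic above. Members have medians of 36.9 and 27.3 on the x axis, against 5.86 and 5.44 in non-cycling cells, and spread from cells with mostly S-phase to cells with mostly mitotic transcripts.

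Single genes followed these ranges. Pcna was at 355 CPM in WT members with an S-phase share of at least 75% and 52.6 CPM in those under 25%, and at 263 and 35.4 CPM in the mutant. Ccnb1, the cyclin of mitosis, was at 2.86 and 100 CPM at these ends in WT and at 3.28 and 115 CPM in the mutant. Both genes belong to the lists that set the ranges, as does Cdc20, at 5.72 and 167 CPM in WT and 6.56 and 190 CPM in the mutant. Of the 4 genes in the limit, Pclaf, which binds PCNA, was highest between 25 and 50% (632 and 589 CPM), and so were Top2a (748 and 667 CPM) and Mki67 (702 and 537 CPM), whereas Birc5, an inhibitor of apoptosis that also acts in mitosis, was highest under 25% (332 and 266 CPM). Irf8 was at 1468, 1112, 1822 and 1266 CPM over the 4 WT ranges from most to least S phase, and at 1395, 521, 1321 and 1330 CPM in the mutant. The mutant range of 50 to 75% held 3 of the 6 members with over 40000 UMIs. Its cDC1 list was at 5559 CPM, and at 6844 CPM without those 3 cells, where the other mutant ranges lay between 8361 and 9135 CPM.

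With UMIs summed over the cells of a group, cDC1 genes were at similar levels in dividing and non-dividing cells. Of 26 measured cDC1 genes in WT, none was 2-fold higher in members and 2 were lower (median log2 ratio 0.03), and of 24 in mutant none differed by 2-fold (median -0.27). The shares of all genes that were lower were 5.02% in WT (199 of 3967) and 0.792% in the mutant (30 of 3789). Over the alternatives the list's median ratio ranged from -0.25 to 0.19 in WT and from -0.33 to 0.11 in the mutant. Per 10000 UMIs of a cell, the cDC1 sum had a median of 100 in WT members and 73.8 in WT non-cycling cells. In the mutant these medians were 86.9 and 87.9. Batf3 was at 243 and 220 CPM in members against 220 and 199 CPM, and Id2, which represses other DC fates, at 657 and 595 CPM against 635 and 547 CPM. Naaa, a lysosomal amidase, was at 759 and 544 CPM against 572 and 539 CPM. Tlr3, the sensor of double-stranded RNA, was at 154 and 128 CPM against 107 and 121 CPM. Itgae, the gene of CD103, was lower in WT members with 27.3 CPM against 61.7 CPM, a log2 ratio of -1.18 (-1.71 to -0.69). It was among the 2 lower genes counted in WT, but reached 50 CPM only in non-cycling cells and had to be lower in members. Flt3 and Zbtb46, which mark all conventional DC, were at 295 and 267 CPM and at 217 and 228 CPM in members.

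Genes for antigen presentation are given by their sums, since their counts past 2-fold lay near the shares over all genes. The MHC-II pathway summed to 30790 and 29422 CPM in members against 36696 and 36810 CPM. H2-Ab1 was at 6138 and 7144 CPM in members against 6237 and 8600 CPM, and Cd74, the invariant chain, at 13224 and 14097 CPM against 15943 and 18230 CPM. The MHC-I pathway summed to 6652 and 7135 CPM against 7501 and 7870 CPM. The 21 DC progenitor genes summed to 1125 and 1156 CPM in members against 1433 and 1157 CPM, and 6 of them reached 50 CPM in each library. Kit, a growth factor receptor of progenitors, was at 117 and 89.8 CPM in members against 104 and 75.04 CPM, and Cd34 had 0 UMIs in WT members and 6 in mutant members.

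**Figure D3:**
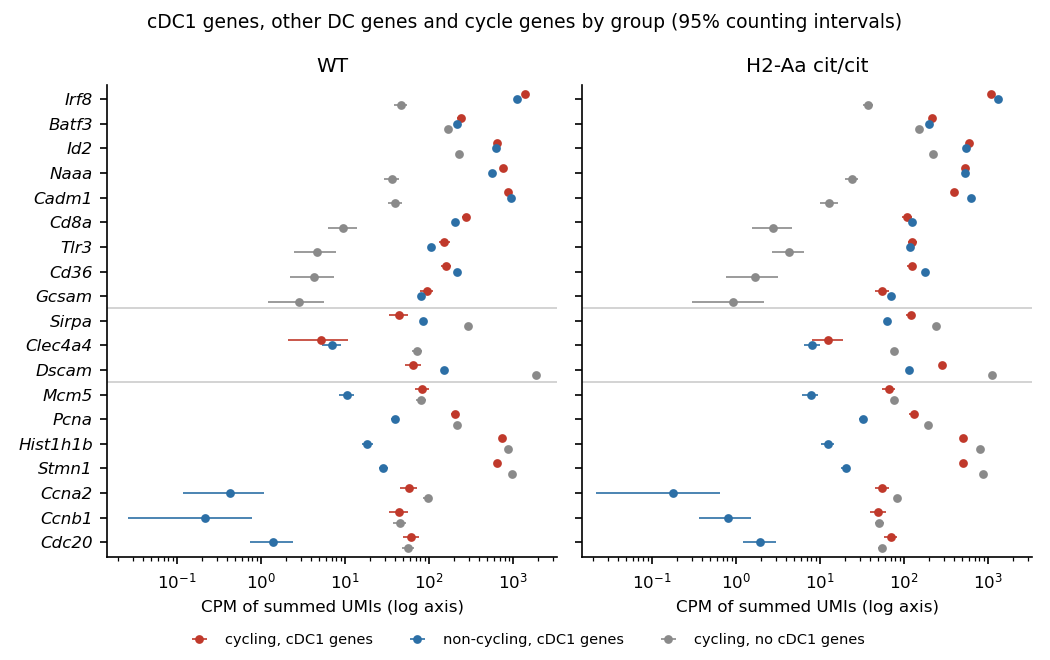
CPM of summed UMIs (x axis, log scale) of cDC1 genes, other DC genes and cell cycle genes in members (red), non-cycling cells with cDC1 genes (blue) and cycling cells without cDC1 genes (grey) of each library, with bars for exact 95% counting intervals. Members sit beside the blue points for cDC1 genes such as Irf8 (1385 and 1107 CPM) and beside the grey points for cell cycle genes such as Ccna2 (58.3 and 55.8 CPM).

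In WT, markers of mature DC were lower in members than in non-cycling cells. The 24 genes of the CCR7 mature DC list summed to 1297 CPM in WT members against 3943 CPM in WT non-cycling cells, and to 1162 against 1090 CPM in the mutant, where they were at 683 against 1038 CPM without the cells with cDC2 genes. Of 19 genes of the list at 50 CPM in WT, 11 reached it only in non-cycling cells and had to be lower in members, so no count of lower genes is given. Ccr7, the receptor that guides mature DC to T cell zones, was at 43.2 CPM in WT members against 179 CPM in WT non-cycling cells, and at 21.3 against 16.3 CPM in the mutant. Cells with at least 2 UMIs of Ccr7 and Fscn1 made up 16.6% of the WT and 3.55% of the mutant non-cycling cells, and 6 and 9 members. Without such cells in either group, the other 22 genes of the list summed to 944 CPM in WT members and 1379 CPM in WT non-cycling cells (1241 and 3625 CPM with them), and to 749 and 865 CPM in the mutant (1122 and 1062 CPM). Cd86, a costimulatory gene, was at 245 and 190 CPM in members and 269 and 238 CPM in non-cycling cells.

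In both libraries 10 of 3538 genes were at least 2-fold lower in members. They were Grm8, Cxcl9, Tcf4, Ly6c2, Slfn5, Cd209a, Sqstm1, Bst2, Gbp8 and Lyz2. Cxcl9, a chemokine induced by interferon-γ that attracts T cells, was at 71.2 and 167 CPM in members against 192 and 468 CPM, a log2 ratio of -1.43 (-1.75 to -1.13) and -1.48 (-1.65 to -1.32). Slfn5 and Gbp8, which are also interferon-induced, were at 14.4 and 42.5 CPM against 95.7 and 98.6 CPM and at 5.30 and 44.6 CPM against 53.7 and 92.0 CPM. Sqstm1, the autophagy receptor p62, was at 61.3 and 150 CPM against 138 and 324 CPM. Grm8 had 0 and 1 UMIs in members against 1329 and 616. In WT it was at least 63.6-fold lower against a floor of 3 UMIs over the group. Slfn5, Gbp8 and Grm8 were among the genes that reached 50 CPM only in non-cycling cells and so had to be lower in members.

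The Siglech and S100a8 limits applied to members and not to the non-cycling cells. With the Siglech and S100a8 limits also put on the non-cycling cells, Grm8 had 5 UMIs in each library's non-cycling cells, Tcf4, a pDC factor, was -0.47 and -0.39, and Bst2 -0.36 and -0.52. Ly6c2 was then -1.74 and 0.031, and Cd209a -1.76 and -0.98, so that neither was 2-fold lower in both libraries. Cxcl9, Slfn5, Gbp8, Sqstm1 and Lyz2 stayed at least 2-fold lower in both libraries under these limits. Of these, Slfn5 and Gbp8 were under 50 CPM in members of both libraries. With cells carrying cDC2 or mature DC genes left out of all groups as well, which was chosen after seeing the data and left 52 and 53 members, Cxcl9 was -1.73 and -1.63, Slfn5 -3.22 and -1.94, and Gbp8 -4.07 and -2.83, the WT value of Gbp8 resting on 1 UMI in members. Sqstm1, Lyz2, Tcf4 and Bst2 were then not 2-fold lower in both libraries, with Sqstm1 at -0.84 and -1.65 and Lyz2 at -0.68 and -0.93. Grm8, Ly6c2 and Cd209a were again at least 2-fold lower in both, Grm8 from at most 5 UMIs in each library's non-cycling cells. Erythroid markers moved with the WT comparison. They summed to 735 CPM in WT non-cycling cells, led by Hbb-bs, with 735 of 785 cells at 0, and their part in it was not tested.

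Against cycling cells without cDC1 genes, members differed in genes of DC type. Of 4407 genes in WT 264 were at least 2-fold higher in members (5.99%) and 647 lower (14.7%), and of 4207 in the mutant 194 were higher (4.61%) and 363 lower (8.63%). Both libraries shared 134 of 4009 higher and 289 lower. Xcr1 and Clec9a set this contrast, so it describes the choice too. The cDC1 list summed to 10279 and 7808 CPM in members against 2481 and 2439 CPM, and the cDC2 list to 489 and 1190 CPM against 2873 and 2876 CPM. Without members over 40000 UMIs the cDC2 list was at 502 and 789 CPM in members. The highest named genes were Plpp1, Itga8, Rab7b, Cd36, Gcsam, Tlr3, Irf8, Cd8a, Clnk and Cadm1. Plpp1, a lipid phosphatase, had 230 and 177 UMIs in members against 6 and 1. Cadm1, an adhesion molecule of cDC1, was at 875 and 399 CPM against 40.2 and 13.0 CPM.

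The lowest were Sdk1, Pard3b, Clec4a4, Adgrg6, Ifitm1, Pgap1, Abcb1a, Depdc1b, Lockd and Dscam. Clec4a4, the lectin receptor DCIR2 of splenic cDC2, was at 5.30 and 12.8 CPM in members against 72.8 and 77.4 CPM. Dscam, an adhesion molecule, was at 65.1 and 287 CPM against 1876 and 1128 CPM. Sdk1, also an adhesion molecule, was at 14.4 and 14.9 CPM against 256 and 184 CPM, and at 0.98 and 0.90 CPM in non-cycling cells with cDC1 genes. Depdc1b and Lockd were likewise lower than in other cycling cells (8.33 and 12.8 against 53.4 and 52.4 CPM for Depdc1b) but above the non-cycling cells (0.33 and 0.27 CPM).

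Spindle transcripts took a smaller share of the UMIs in members than in the other cycling cells. The whole spindle and kinetochore list summed to 2723 and 2589 CPM in members against 5140 and 4987 CPM. Of its 35 and 33 genes at 50 CPM in either group, 14 and 13 reached it only in the other cycling cells and had to be lower in members. Nusap1, a spindle protein, was at 132 and 114 CPM in members against 297 and 284 CPM. The replication list summed to 2849 and 2176 CPM against 3752 and 3319 CPM. Pola1, the catalytic subunit of the polymerase that primes replication, was at 202 and 159 CPM against 446 and 391.9 CPM, whereas Mcm5 was at 84.0 and 66.9 against 81.8 and 77.6 CPM. Ccnd1 was at 232 and 324 CPM against 611 and 452 CPM. These are shares of a cell's UMIs, and members had over 2-fold as many UMIs per cell at the median as the other cycling cells.

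The share of cells with cDC1 genes that cycled was close in the libraries. It was 8.85% in WT (71 of 802, interval 6.98 to 11.04) and 9.55% in the mutant (84 of 880, 7.69 to 11.7). When each cell was thinned to 3000 UMIs before limits of 2 cycling and 1 cDC1 UMIs were applied, it was 6.42% (52 of 810, 4.83 to 8.33) and 5.49% (52 of 948, 4.12 to 7.13). Members were 0.909% (0.710 to 1.14) of all WT cells and 0.729% (0.582 to 0.902) of all mutant cells. Of all cycling cells they made up 20.2% (71 of 352, 16.1 to 24.7) in WT and 13.2% (84 of 638, 10.6 to 16.0) in the mutant. Cells that passed the cDC1 limits were 10.3% and 7.64% of all cells, and 4.08% and 5.27% of the cells under the cDC1 limit cycled. The sort, the depth of each library and the pooled mice can set such shares, and the intervals cover counting error within 1 library only, so they do not bear on genotype.

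Between genotypes, H2-Aa differed most among the named genes. It had 6665 UMIs (5046 CPM) in WT members and 84 UMIs (44.6 CPM) in mutant members, a log2 ratio of -6.82 (-7.15 to -6.51), which checks the labels. H2-Aa lies at chr17:34282744-34287823 (GRCm38.p6). Thinned to 3000 UMIs, all 71 WT members and 13 of 84 mutant members (15.5%, 8.51 to 25.01) had a UMI of it, and 12.5% of the mutant non-cycling cells did. Of 3905 genes, 105 were at least 2-fold higher in mutant members (2.69%) and 51 lower (1.31%). Without members over 40000 UMIs, 62 were higher. In non-cycling cells 133 of 3726 were higher (3.57%) and 187 lower (5.02%). No measured gene of the spindle, mitotic kinase, licensing, chromatin or DNA repair lists differed by 2-fold between genotypes (medians -0.13, -0.11, -0.29, -0.29 and -0.38, against -0.02 over all genes). In the replication fork and DNA synthesis list 1 of 24 was 2-fold lower in mutant members, with 5 of the 24 at 50 CPM in WT members only, and the whole list summed to 2849 CPM in WT and 2176 CPM in mutant members.

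The highest named genes in mutant members were Phgdh, Isg15, Nucb2, Sirpb1a, Manf, Dscam, Creld2, Gpr141, Ccl5 and Atrnl1. Phgdh, the first enzyme of serine synthesis, had 21 UMIs (15.9 CPM) in WT members and 240 (128 CPM) in mutant members, a log2 ratio of 3.00 (2.36 to 3.72). In non-cycling cells its ratio was 4.22 (3.83 to 4.64). Isg15, an interferon-induced modifier, was at 12.9 and 103 CPM (2.99, 2.28 to 3.80), and at 35.5 and 78.2 CPM in non-cycling cells (1.14). Manf and Creld2, both secreted from a stressed endoplasmic reticulum (ER), had ratios of 2.22 and 2.12 in members and 3.18 and 3.65 in non-cycling cells. Gpr141, an orphan receptor, was at 62.8 and 267 CPM (2.09), and at 77.9 and 313 CPM in non-cycling cells.

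Dscam, Ccl5 and Atrnl1 moved with members that had cDC2 genes. With the cells of at least 3 UMIs of the 6 cDC2 genes left out, which kept 56 WT and 55 mutant members, Dscam was at 22.8 and 24.6 CPM (0.11, -0.77 to 0.99). Ccl5, a chemokine, moved from 2.06 to 0.20 (-0.28 to 0.67) and Atrnl1 from 1.90 to 0.46 (-0.47 to 1.42). Sirpb1a had 2 and 7 UMIs left, a ratio of 1.80 (-0.59 to 5.10), and was at 1.15 (0.56 to 1.78) without members over 40000 UMIs. In non-cycling cells Dscam, Ccl5 and Atrnl1 were lower in the mutant, at -0.40, -1.89 and -0.51. Phgdh (3.58), Isg15 (3.25), Nucb2 (2.54), Manf (2.497), Creld2 (2.20) and Gpr141 (1.74) stayed over 2-fold higher without those cells, as H2-Aa stayed lower (-7.16). Sirpa, the gene of a cDC2 surface receptor, was at 43.9 and 122 CPM in all members (1.47) and at 0.36 (-0.14 to 0.86) without members over 40000 UMIs, a limit chosen after seeing the data.

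Named genes that were lower in mutant members were, after H2-Aa, P3h2, Apol7c, Ccr9, Cacna1e, Zc3h12c, Lima1, Clec1a, Nck2 and Gpr141b. P3h2, a collagen prolyl hydroxylase, was at 217 CPM in WT members and 32.4 CPM in mutant members (-2.74, -3.17 to -2.34), and its ratio was -1.20 in non-cycling cells. Apol7c, an apolipoprotein L gene, was at 224 and 42.5 CPM (-2.40), and at 615 and 46.3 CPM in non-cycling cells (-3.73). Ccr9, a homing receptor of pDC and gut lymphocytes, was at 109 and 33.5 CPM (-1.70). Cacna1e, a calcium channel gene, was at 432 and 135 CPM (-1.67). The remaining named genes lay between -1.51 and -1.34. With cells carrying cDC2 or mature DC genes left out, Zc3h12c was at 0.089 (-0.57 to 0.75), Lima1 at -0.33 (-0.86 to 0.20) and Clec1a at -0.97 (-1.41 to -0.54). On cells thinned to 3000 UMIs before the limits, Clec1a was at -0.34 and Gpr141b at -0.68. With a cycling limit of 6 UMIs, Nck2 was at -0.93. In the cDC1 list 2 of 25 were 2-fold lower, beside 1.31% of all genes, Cd8a at 276 and 111 CPM (-1.32, -1.57 to -1.07) and Cadm1 at 875 and 399 CPM (-1.13), and Cadm1 was -0.52 without the cells with cDC2 genes. Irf8 was at 1385 and 1107 CPM in members (-0.32, -0.42 to -0.23), and at 1119 and 1340 CPM in non-cycling cells (0.26, 0.22 to 0.30). Without the cells with cDC2 genes the members' ratio of Irf8 was 0.02 (-0.08 to 0.12), and without members over 40000 UMIs -0.02 (-0.11 to 0.08).

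**Figure D4:**
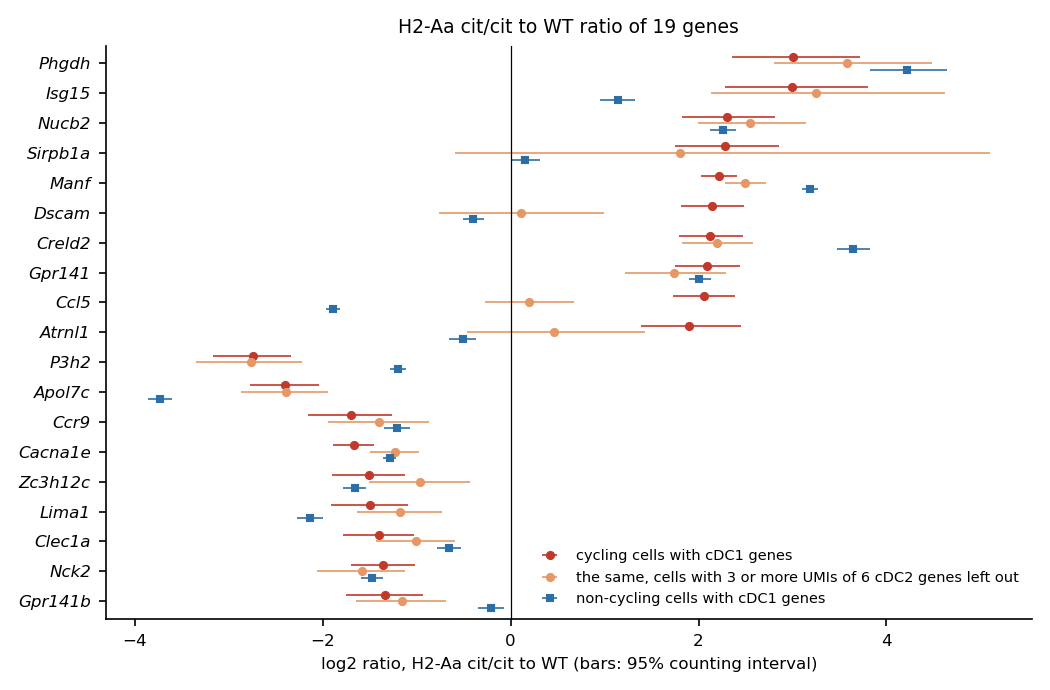
Log2 ratio of CPM in H2-Aa cit/cit to WT (x axis) of the named genes other than H2-Aa, in members (red), in members without cells that had at least 3 UMIs of 6 cDC2 genes (orange) and in non-cycling cells with cDC1 genes (blue), with bars for exact 95% counting intervals. Phgdh stays at 3.00, 3.58 and 4.22, whereas Dscam goes from 2.14 to 0.11 in members and is -0.40 in non-cycling cells.

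Genes of protein folding in the ER were higher in mutant members, and members stood on opposite sides of the non-cycling cells in the 2 libraries. The 23 genes of the ER folding list summed to 5274 CPM in WT members and 12086 CPM in mutant members, 2.29-fold higher, and to 3713 and 16499 CPM in non-cycling cells, 4.44-fold higher. Of its 22 genes at 50 CPM in either genotype, 4 reached it only in mutant members, and in non-cycling cells 5 did so only in the mutant, among them Hyou1 and Dnajb9. A sum of 10 ER chaperone genes (Hspa5, Hsp90b1, Pdia4, Pdia6, Sdf2l1, Creld2, Manf, Hyou1, Dnajb11 and Dnajb9) was at 2444 CPM in WT members and 7072 CPM in mutant members, 2.89-fold higher. In non-cycling cells it was at 1432 and 9731 CPM, 6.79-fold higher, and in cycling cells without cDC1 genes at 866 and 2172 CPM, 2.51-fold higher. Within WT, members were thus 1.71-fold above the non-cycling cells (log2 0.77, 0.71 to 0.83), and within mutant they were 1.38-fold below (-0.46, -0.49 to -0.43). With gates on cells thinned to 3000 UMIs the mutant value was -0.02.

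Per cell, the 10 genes had a median of 18.9 UMIs per 10000 in WT members, with quartiles of 12.7 and 34.6, and of 76.9 in mutant members, with quartiles of 34.7 and 110. Non-cycling cells had medians of 9.70 and 87.0, and cycling cells without cDC1 genes 6.93 and 10.98. Values overlapped between genotypes, since members ranged from 1.17 to 117 in WT and from 4.82 to 167 in the mutant. Hspa5, the ER chaperone BiP, was at 598 and 2066 CPM in members and 402 and 3088 CPM in non-cycling cells. Hsp90b1, its partner GRP94, was at 741 and 1637 CPM against 395 and 2148 CPM. By S-phase share, the sum was at 1904, 1954, 2211 and 3393 CPM in the WT ranges from most to least S phase, and at 7566, 4092, 6703 and 9803 CPM in the mutant. Without members over 40000 UMIs, the mutant values were 7566, 5369, 6934 and 9912 CPM. Members with the smallest S-phase share had the highest sum in both libraries.

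**Figure D5:**
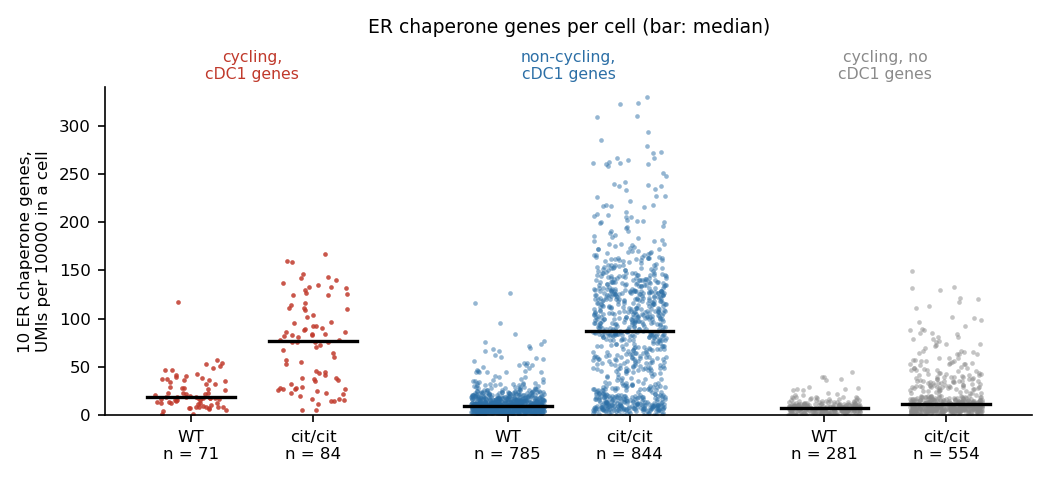
UMIs per 10000 of 10 ER chaperone genes in each cell (y axis) by group and library, with a black bar at the median. The medians are 18.9 and 76.9 in WT and H2-Aa cit/cit members, 9.70 and 87.0 in non-cycling cells with cDC1 genes, and 6.93 and 10.98 in cycling cells without cDC1 genes.

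Genes tied to ATF4 and CHOP, factors of the stress response, were also higher as a sum. The 10 genes were Ddit3, Atf5, Asns, Phgdh, Nupr1, Chac1, Trib3, Psat1, Sesn2 and Atf3. Their sum was at 86.3 CPM in WT members and 513 CPM in mutant members, 5.94-fold higher. In non-cycling cells it was at 95.5 and 778 CPM. Phgdh, already named as the highest gene in mutant members, is part of this sum, which is therefore not an independent result. Asns, asparagine synthetase, had 0 UMIs in WT members and 100 in mutant members, at least 23.4-fold higher against a floor of 3 UMIs over the group. Nupr1, a stress-induced chromatin protein, had 0 and 108 UMIs, at least 25.3-fold higher. Cox6a2, the muscle form of a cytochrome oxidase subunit, is not one of the 10 genes. It had 0 and 186 UMIs, at least 43.5-fold higher. Thinned to 3000 UMIs, 12 of 84 mutant members (14.3%, 7.61 to 23.6) and 32.5% of the mutant non-cycling cells had a UMI of Cox6a2, against 5.18% of the mutant cycling cells without cDC1 genes. In WT 4.54% of the non-cycling cells (34 of 749) had one, 0 of 251 cycling cells without cDC1 genes, and 0 of 71 members, a number of cells that leaves room for up to 5.06%. Ddit3, the gene of CHOP, was at 10.6 and 63.2 CPM in members and 12.5 and 145 CPM in non-cycling cells.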

How the data were processed

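Single cells of 1 library per genotype were sequenced with a 3′ droplet kit. The authors deposited filtered matrices of UMI counts per gene and cell, made with Cell Ranger 5.0.1 on the mouse genome GRCm38. The gene annotation and the handling of intronic reads are not given in the sources used here. The labels give an age of 4 months, and the study's methods give a younger range. Counts were used as deposited, with no filter on cells. A limit of 25% mitochondrial UMIs would leave 7806 WT and 11521 H2-Aa cit/cit cells. Doublets were not removed and no doublet caller was run.

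UMIs were summed per group and library and scaled to CPM. Genes past 2-fold were counted among those with at least 50 CPM in either group. Ratios have exact conditional binomial intervals, shares exact Clopper-Pearson intervals and CPM exact Poisson intervals. Ratios of listed genes under that minimum are given in places. With 1 library per genotype no test was run. Named genes were the 10 highest and 10 lowest, by the log2 ratio nearer 0 of both libraries for the cycling comparisons, and by the ratio of genes with at least 100 CPM and at most 50% of their UMIs from 1 cell for genotype. Genes of the limits, mitochondrial, Gm and Rik genes were not named, and members of the gene lists were named beside these. The members and lists were chosen with earlier results of these data known. Alternatives changed the limits, the depth, the CPM minimum, the scaling and the cells left out. The calculations were tested on simulated data. Python 3.11.15, numpy 2.4.6, scipy 1.17.1, pandas 2.3.3 and matplotlib 3.10.9 were used.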

Additional observations from a re-analysis of the deposited data

Results flagged for a closer look

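Several genes stood above the non-cycling cells in the members of one library and below them in the other. Values are log2 ratios of members to non-cycling cells with cDC1 genes, first for WT and then for H2-Aa cit/cit. There was 1 library per genotype, and the difference was not tested.

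ER chaperone genes were higher in WT members and lower in H2-Aa cit/cit members. Their ratios were 0.77 and -0.46 for the sum of 10 genes, 1.02 and -0.51 for Creld2, 0.91 and -0.39 for Hsp90b1, 0.89 and -0.30 for Pdia6, and 1.06 and -0.36 for Sdf2l1.

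Genes of the mature DC list that went the other way included Ccl5 (-3.26 and 0.68), Fscn1 (-3.44 and 0.68), Il4i1 (-2.43 and 0.54) and Relb (-1.88 and 0.63). Ccr7 also was lower in WT members and higher in H2-Aa cit/cit members. Fscn1 and Il4i1 were under 50 CPM in both groups of the H2-Aa cit/cit library, with 37 and 64 UMIs in members. Over the 7 measured genes of the list in H2-Aa cit/cit the median was -0.23 and none was 2-fold higher, and Cd86 was lower in both libraries (-0.13 and -0.32). Cells with at least 2 UMIs of Ccr7 and Fscn1 were 16.6% of the WT and 3.55% of the H2-Aa cit/cit non-cycling cells. They were 8.45% and 10.7% of the members, where single cells held up to 40 (WT) and 21 UMIs of these genes. Without such cells in either group, the other 22 genes of the list were lower in members of both libraries. They summed to 944 against 1379 CPM in WT and 749 against 865 CPM in H2-Aa cit/cit.

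Of the cDC2 list, 3 genes had ratios of -0.97 and 0.92 for Sirpa, -1.17 and 0.41 for Ltb and -0.84 and 0.77 for S100a4, whereas Cd209a was lower in both libraries (-2.01 and -1.11, ranging over the alternatives from -2.40 to -0.62 and from -2.36 to -0.20). Ratios of the same signs were found for Atrnl1 (-1.74 and 0.67), Dscam (-1.22 and 1.32), Sirpb1a (-1.37 and 0.76) and Isg15 (-1.46 and 0.39), which was under 50 CPM in both WT groups. Members with at least 3 UMIs of 6 cDC2 genes made up 21.1% of the WT members and 34.5% of the others.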

How the results depend on the processing

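No paired analysis was possible because each genotype has 1 library. The share of cells with cDC1 genes that cycled moved from 8.85% in WT to 12.04% with at least 4 cDC1 UMIs, to 6.42% on thinned cells and to 12.4% in cells with at least 10000 UMIs, and from 9.55% in H2-Aa cit/cit to 5.49% and 12.1% under the latter pair. The count of genes higher in members of both libraries went from 139 to 316 at a minimum of 20 CPM. The count of lower genes went from 10 to 62 on thinned cells, 34 without cells with cDC2 genes, 5 at 10000 UMIs or more, 24 as a mean over cells, 30 at 20 CPM, 6 with the members' limits on the non-cycling cells, and 23 with the limits and without cells with cDC2 or mature DC genes. The 105 genes higher in H2-Aa cit/cit members became 502 on thinned cells, 247 at 20 CPM and 62 without cells over 40000 UMIs, and the 51 lower genes became 442 on thinned cells and 127 at 20 CPM. With the members' limits on the non-cycling cells, Grm8 was at 0.17 and Ly6c2 at 0.031 in H2-Aa cit/cit, and without cells with cDC2 or mature DC genes Zc3h12c was at 0.089 between genotypes, where the cause was not tested. The 10 genes named as higher than in non-cycling cells stayed at least 2-fold higher in both libraries under every alternative run. Each alternative kept a limit on the cycling genes, so this describes the choice of the cells and is no check of it. The sum of 10 ER genes ranged from 0.55 to 0.89 in WT and from -0.61 to -0.02 in H2-Aa cit/cit. Limits on cells over 40000 UMIs and the joint removal of cDC2 and mature DC cells were chosen after seeing the data. With 71 and 84 members, genes of low CPM rest on few UMIs.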

Other observations

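Ribosome biogenesis and glycolysis genes made up more of the UMIs in members than in non-cycling cells with cDC1 genes, by sums over whole lists. The 22 genes of the ribosome biogenesis and MYC target list summed to 3977 CPM in WT members and 3833 CPM in H2-Aa cit/cit members, against 2103 and 2813 CPM, 1.89-fold and 1.36-fold higher. Of the 16 and 17 genes of this list at 50 CPM, 6 and 2 reached it only in members. Ncl, the nucleolar protein nucleolin, was at 626 and 584 CPM in members against 278 and 413 CPM. The 13 glycolysis genes were 1.61-fold and 1.16-fold higher, and 2 and 1 of the genes at 50 CPM reached it only in members. Gapdh, a glycolytic enzyme, was at 665 and 735 CPM against 318 and 508 CPM. Nuclear genes of the respiratory chain summed to 1.38-fold and 1.13-fold higher levels, with 1 and 0 of 22 at least 2-fold higher, beside 6.76% and 4.17% of all measured genes. The cholesterol synthesis list was 1.06-fold and 1.04-fold higher.

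The survival and signalling lists summed to lower levels in members. The BCL2 family was at 974 and 1083 CPM in members against 1436 and 1441 CPM. Bcl2a1b, which protects cells from apoptosis, was at 143 and 269 CPM against 339 and 475 CPM. Immediate-early genes were at 1713 and 1564 CPM against 2645 and 1968 CPM, and interferon-stimulated genes at 599 and 1040 CPM against 1133 and 1231 CPM. Bst2, which is also a pDC marker, was the most abundant gene of the interferon list in non-cycling cells, at 336 and 290 CPM there and 103 and 140 CPM in members. Without Bst2 the list was at 496 and 899.5 CPM against 797 and 942 CPM, and against 742 and 921 CPM with the Siglech and S100a8 limits on the non-cycling cells too. The pDC list moved with it, at 363 and 455 CPM in members against 1245 and 1063 CPM, and against 449 and 702 CPM under those limits. The BCL2 family and immediate-early sums are given against all non-cycling cells, without those limits. Of the WT non-cycling cells, 16.6% had at least 2 UMIs of Ccr7 and Fscn1. Sums follow the most abundant genes of a list. These lists were not tested, and members had more UMIs per cell than non-cycling cells.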
